A study of Rattus norvegicus and Mus musculus with 3 samples.

Results

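The neurotrophin genes followed here are Bdnf and Ntf3, which encode secreted neurotrophins, Ntrk2, Ntrk3 and Ngfr, which encode neurotrophin receptors, Sort1, which encodes the sorting receptor sortilin, and Vgf, which encodes a secreted peptide precursor that neurotrophins induce. They were taken by symbol, ignoring case, and all 7 were listed in each table, among 30438 genes in each rat table and 34714 in the mouse table. The study sequenced RNA of the hippocampus, and 3 libraries, each the only one of its group, were used. The 2VO library came from a rat of 3 to 4 months with genotype WT; the name 2VO commonly stands for tying off both common carotid arteries, which lowers blood flow to the brain. The wild-type mouse library came from a 6 month old animal labelled WT of the 3xTg-AD line, a model of Alzheimer's disease. The Sham library came from a rat of 3 to 4 months with genotype WT and Sham as its model. Rat strain, sex, the time after surgery and any pooling of animals are not given in the labels. Transgenic animals of that mouse line were not used here.

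Neurotrophins are made as precursors, cut by proprotein convertases or extracellular proteases, and released from dense core vesicles. BDNF signals through TrkB, the product of Ntrk2, and NT-3 mainly through TrkC, the product of Ntrk3. The p75 receptor, the product of Ngfr, binds all neurotrophins and, together with sortilin, binds their precursors. In the hippocampus BDNF is known for its part in synaptic plasticity, and neuronal activity induces both Bdnf and Vgf through the transcription factor CREB.

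The deposited values are normalized expression values whose unit is not stated, so depth is unknown and no counting interval can be given. Whether they are scaled by gene length is also not stated, so levels of different genes are not compared. Since each group is a single library, none of the differences could be set against a spread between replicates, and each describes these libraries rather than the conditions. Hippocampal markers were present in both rats, such as Wfs1 of CA1 at 111 units in 2VO and 169 in Sham, and C1ql2 of dentate granule cells at 95.8 in 2VO and 96.6 in Sham. Other markers of the same lists were near 0 in the rats: Spink8 was 0.0741 in 2VO and 0.0696 in Sham, and Tdo2 was listed at 0 in 2VO and was 0.0118 in Sham.

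The start regions of Vgf and Bdnf are shown because both genes are textbook targets of CREB, whose site is the CRE, and both were lower in the 2VO library, as described further on. Capitals mark the CRE sequence TGACGTCA in Vgf and its shorter core TGACG, which lies on the opposite strand and so reads CGTCA, in Bdnf. Each window runs from 250 bases before to 50 bases after a RefSeq start in the rat build GRCr8 and is written 5′ to 3′ on the gene's strand, which is minus at chr12:25276971-25277270 for Vgf and plus at chr3:116637608-116637907 for Bdnf.
Vgf: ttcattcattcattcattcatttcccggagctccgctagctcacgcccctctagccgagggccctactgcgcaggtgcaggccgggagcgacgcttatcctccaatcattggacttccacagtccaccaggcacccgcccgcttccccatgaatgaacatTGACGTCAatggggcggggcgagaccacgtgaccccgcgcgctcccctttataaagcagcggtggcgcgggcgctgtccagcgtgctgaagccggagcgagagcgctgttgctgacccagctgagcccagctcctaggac
Bdnf: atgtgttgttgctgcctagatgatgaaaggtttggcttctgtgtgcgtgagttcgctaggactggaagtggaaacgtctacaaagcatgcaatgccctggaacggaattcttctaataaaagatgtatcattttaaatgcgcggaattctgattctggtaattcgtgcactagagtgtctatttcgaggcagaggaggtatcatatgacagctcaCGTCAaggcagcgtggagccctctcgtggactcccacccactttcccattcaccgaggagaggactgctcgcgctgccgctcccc

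The full site in the Vgf window spans bases -90 to -83 counted from the start, and the core in the Bdnf window spans -35 to -31. RefSeq windows were found for 4 of the 7 genes, namely Bdnf, Ntf3, Sort1 and Vgf, and there were 11 windows in all. TGACGTCA, which reads alike on both strands, occurred in 1 of them, that of Vgf. TGACG on either strand, which the full site contains, occurred in 2, that of Vgf and 1 of the 6 of Bdnf. Over all 33469 windows 1.83% held TGACGTCA and 21.2% held TGACG. A match describes the letters of a window and not a bound site. Ntf3 and Sort1, also lower in the 2VO library, had no TGACG in any window. A part of CREB in any of these values was not tested.

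The comparison of the 2VO rat with the Sham rat asks how these transcripts differ with the vascular model. Bdnf was the member furthest from 0, with 7.59 units in 2VO against 9.87 in Sham, and Ntrk2, the TrkB gene, lay close together in the 2 rats. Of the 6 members that averaged 1 unit or more over the 2 rats, which are called measured, 5 were lower in 2VO and 1, Ntrk2, was higher. None of the 6 lay 1.5-fold apart, on a log2 scale with 1 unit added to each value. Of all 13550 measured genes 2.48% did so, 1.51% higher and 0.967% lower in 2VO, so for 6 genes a count of 0 is near the background. The median log2 ratio of the 6 was -0.15, beside 0.04 over all measured genes, of which 41.3% were lower in 2VO. The range of the 6 ran from -0.34 to 0.09, and all 6 lay inside the central 95% of measured genes, which spanned -0.41 to 0.50.

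**Figure D1:**
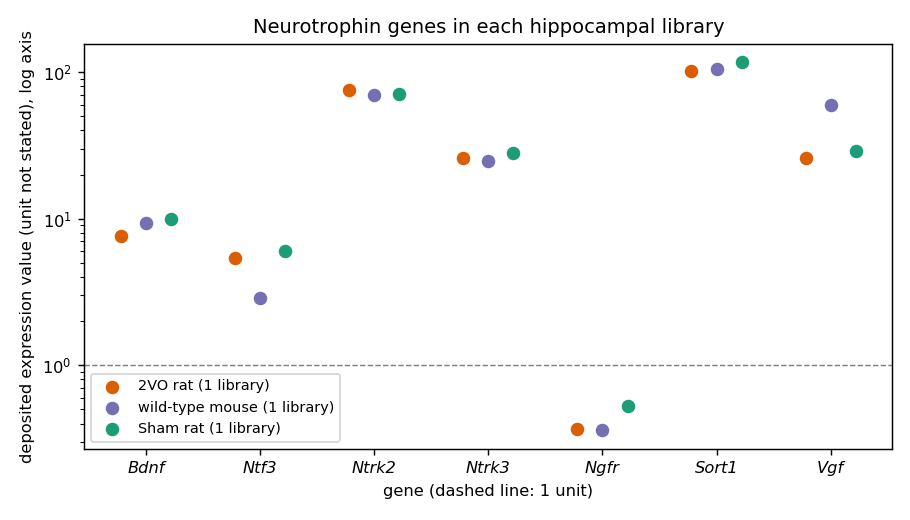
Deposited expression value (log axis, unit not stated) of the 7 neurotrophin genes, with 1 point per library and the dashed line at 1 unit. Ntrk2, Ntrk3 and Sort1 lie close together in all 3 libraries, and Bdnf is lowest in 2VO at 7.59. Vgf is highest in the mouse at 59.2, and Ngfr lies under 1 unit in each.

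Among the ligands, Bdnf in 2VO was 0.769 times its Sham value, a log2 ratio of -0.34. Only 4.08% of measured genes had a lower ratio, and 3.02% of the 5560 genes with a mean from 5 to 20 units, the level class of Bdnf. Ntf3, the NT-3 gene, was 5.40 units in 2VO and 6.02 in Sham, a log2 ratio of -0.13 that lay at percentile 17.5 of measured genes. Both ligands were thus lower in the 2VO library, Bdnf by the larger factor. Ntf4, which encodes another TrkB ligand, was 0.0224 in 2VO and 0.0867 in Sham, too low to compare; the mouse table lists Ntf5, a name used for it in mouse, at 0.0858.

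Among the receptors, Ntrk2 was 75.6 units in 2VO and 70.8 in Sham, a log2 ratio of 0.09. Ntrk3, the TrkC gene, was 26.1 in 2VO and 28.0 in Sham, a log2 ratio of -0.10. These are the 2 members whose ratios lay closest to 0, at percentiles 61.4 and 22.9. Set against its receptor gene within each library, a ratio that no scaling can alter, Bdnf over Ntrk2 in 2VO was 0.721 times that in Sham, and Ntf3 over Ntrk3 was 0.962 times. The NT-3 pair thus stood in nearly the same ratio in both rats, and the ratio of the BDNF pair was lower in 2VO. Ntrk2 and Ntrk3 each encode full-length receptors and forms that lack the kinase, and neurons and astrocytes differ in which Ntrk2 form they make. In the mouse annotation GENCODE M21, Ntrk2 had 7 protein-coding transcripts with coding lengths from 1398 to 2463 bases, and 6 were listed for Ntrk3. The tables hold 1 value per gene, so full-length and truncated receptors were not told apart. In RefSeq GRCr8, 7 non-coding genes and 0 protein-coding genes overlapped Ntrk2, and the 2 listed in the rat tables reached at most 0.0307 units.

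Ngfr, the p75 receptor gene, did not reach a mean of 1 unit in the rats and stayed out of the counts above. It was 0.368 units in 2VO and 0.531 in Sham, and values this low were not used to judge a difference. Sort1 was 102 units in 2VO and 117 in Sham, a log2 ratio of -0.19 at percentile 11.5. Vgf was 25.8 in 2VO and 29.2 in Sham, a log2 ratio of -0.17 at percentile 13.5. Both lay on the lower side of the distribution and well inside its central 95%.

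**Figure D2:**
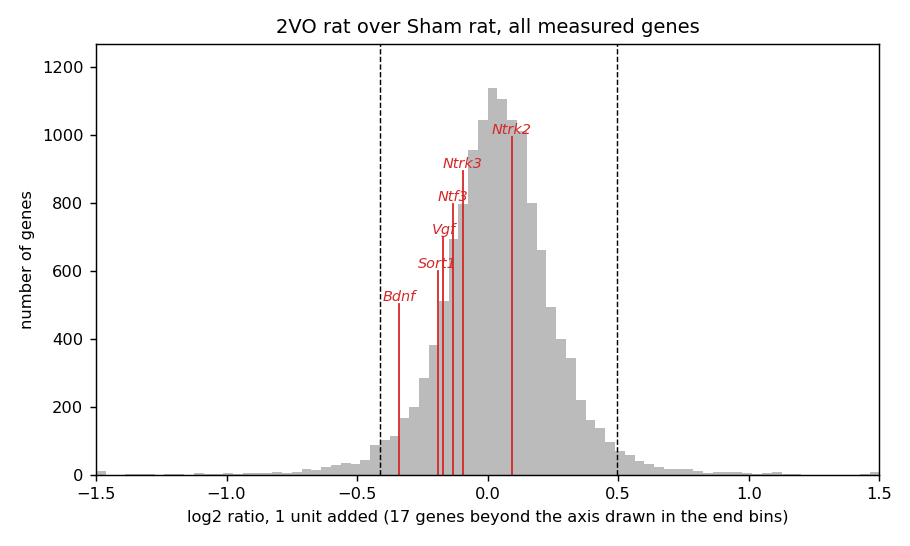
Histogram of the log2 ratio of 2VO over Sham (1 unit added to both values) for the 13550 measured genes, with dashed lines at the central 95% and red lines at the 6 measured members. The members lie between -0.34 (Bdnf) and 0.09 (Ntrk2), inside the dashed lines.

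In bulk RNA, fewer cells of a type and less RNA per cell cannot be told apart. Several cell type markers differed between the rats beside the members. Of 7 measured CA pyramidal markers 5 were lower in 2VO, with a median log2 ratio of -0.37 and a summed level of 354 units in 2VO and 452 in Sham. Most of the difference of that sum was in Wfs1, at 111 in 2VO and 169 in Sham, the 1 pyramidal marker past 1.5-fold as deposited. Of 4 measured dentate granule markers 3 were lower, with a median of -0.11 and a sum of 141 in 2VO and 152 in Sham. Granule and pyramidal neurons are the main Bdnf producers of the hippocampus. General neuronal markers went the other way, 5 of 6 being higher in 2VO with a median of 0.31 and a sum of 1395 in 2VO and 1093 in Sham. Of 7 interneuron markers 5 were higher, with a median of 0.24, and of 6 microglial markers 5 were lower, with a median of -0.29. Of 7 oligodendrocyte markers 7 were higher in 2VO, with a median of 0.32 and a sum of 4648 in 2VO and 3718 in Sham. Of 7 astrocyte markers 3 were higher and 4 were lower, around a median of -0.01, and with each of the 3 other scalings 1 was higher and 6 were lower. Their sum was 1250 in 2VO and 1595 in Sham. Gfap, an intermediate filament gene, was the 1 astrocyte marker past 2-fold, at 360 in 2VO and 778 in Sham. The difference of Gfap is larger than that of the sum, so the sum follows this gene. Of 5 cortical markers 4 were higher in 2VO, with a sum of 60.5 in 2VO and 38.6 in Sham. Most of that difference was in Lamp5, at 27.3 in 2VO and 12.2 in Sham. All 4 ependymal markers were higher in 2VO, with a median of 0.56 and a sum of 10.5 in 2VO and 6.11 in Sham. Of these, Ak7, at 1.76 in 2VO and 0.826 in Sham, reached a mean of 1 unit only through 2VO. Of 4 choroid plexus markers 2 were measured, and both reached a mean of 1 unit only through 2VO. Their direction is therefore not read. They were Ttr, the transthyretin gene, at 4.75 in 2VO and 0.434 in Sham, and Folr1, at 1.54 in 2VO and 0.798 in Sham. Of those not measured, Clic6 was higher and Kl lower in 2VO. The part of these differences in the values of Bdnf, Vgf, Sort1 and Ntrk2 was not tested.

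Bdnf and Vgf were set beside other genes that neuronal activity or BDNF induces, a list that holds neither. Of its 18 measured genes 11 were higher and 7 lower in 2VO, with a median log2 ratio of 0.06. Past 1.5-fold were 4 higher and 1 lower, beside 1.51% higher and 0.967% lower of all measured genes. Of the 4, Npas4 reached a mean of 1 unit only through 2VO, so its direction is not read. Npas4, a transcription factor that acts on Bdnf promoters, was 3.11 units in 2VO and 0.502 in Sham, and Rgs4, which encodes a regulator of G protein signalling, was 23.0 in 2VO and 10.2 in Sham. Btg2 was 6.84 in 2VO and 12.7 in Sham, and Dusp1, a phosphatase of MAP kinases, was 14.9 in 2VO and 18.7 in Sham. With equal upper quartiles the list split into 9 higher and 9 lower. Fos was 6.86 in 2VO and 4.03 in Sham and Egr1 33.0 in 2VO and 19.9 in Sham, both also past 1.5-fold as deposited. The list was thus divided. Npas4 aside, Rgs4, Fos and Egr1 were past 1.5-fold higher in 2VO and Btg2 past it lower. Bdnf and Vgf stood with the lower genes of the list. Among 15 genes for regulators of Bdnf transcription, 9 were higher in 2VO and 6 were lower, and their median was 0.06. Npas4 alone passed 1.5-fold there, and it reached a mean of 1 unit only through 2VO. Ppargc1a, a transcriptional coactivator, was 8.34 in 2VO and 6.62 in Sham. At the low end Srf, a serum response factor, was 16.4 in 2VO and 17.8 in Sham, and Nr3c1, the glucocorticoid receptor gene, was 14.7 in 2VO and 15.8 in Sham.

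Vgf belongs with the granins as cargo of dense core vesicles, and most of the other genes of that compartment lay on the other side of 0. Of 19 measured genes 16 were higher in 2VO and 3 were lower, around a median of 0.10, while 41.3% of all measured genes were lower. With each of the 3 other scalings 13 of the 19 were higher and 6 were lower. Rab3a, a vesicle GTPase, was 299 units in 2VO and 232 in Sham, and Pcsk2, a proprotein convertase, was 81.2 in 2VO and 63.6 in Sham. Pcsk1n, which encodes proSAAS, an inhibitor of the convertase PC1/3, was the 1 gene past 1.5-fold, at 210 in 2VO and 318 in Sham. Syt7, a calcium sensor of vesicle release, was 77.4 in 2VO and 101 in Sham. Within a library, Vgf over Scg2, the secretogranin II gene, was 0.831 times as high in 2VO as in Sham, and Vgf over Chgb, the chromogranin B gene, 0.827 times.

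**Figure D3:**
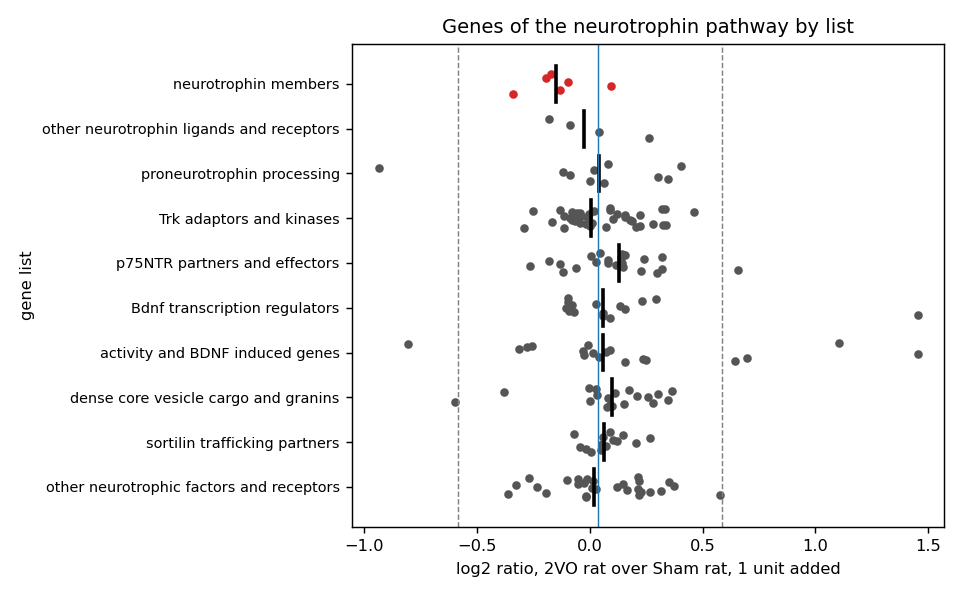
Log2 ratio of 2VO over Sham (1 unit added) for each measured gene, by list; black bars are list medians, the blue line is the median of all measured genes at 0.04, and dashed lines mark 1.5-fold. The 6 members (red) have a median of -0.15, and the isolated points include Timp1 at -0.93 and Npas4 at 1.45 (in both lists that hold it). Npas4 reached a mean of 1 unit only through 2VO.

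Sorcs1, Sorcs2, Sorcs3 and Sorl1, which encode relatives of sortilin, each lay less than 1.5-fold apart in the rats. Sorcs1 was 6.06 units in 2VO and 4.89 in Sham, and Sorcs2, a partner of p75, was 9.46 in 2VO and 9.18 in Sham. Sorcs3 was 7.02 in 2VO and 7.51 in Sham, and Sorl1 was 57.4 in 2VO and 65.0 in Sham. Sort1 over Sorl1 within a library was 0.992 times as high in 2VO as in Sham, so sortilin and its relative SorLA stood in nearly the same ratio in both. Nradd, a relative of the p75 gene, was 0.388 in 2VO and 0.687 in Sham. Of the 4 relatives of sortilin 2 were higher and 2 lower in 2VO, around a median of -0.02.

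Downstream of the receptors, the list of Trk signalling was centred near the median of all genes and that of p75 partners above it. Of 40 measured genes for adaptors and kinases of Trk signalling 21 were higher and 19 lower in 2VO, with a median of 0.0054. None lay 1.5-fold apart, which is near the share of 2.48% over all measured genes. Pik3r1, a regulatory subunit of PI3 kinase, was 12.5 units in 2VO and 8.81 in Sham, and the adaptor gene Gab1 was 15.3 in 2VO and 11.9 in Sham. The adaptor gene Shc2 was 13.5 in 2VO and 16.8 in Sham, and Akt1, a kinase gene downstream of PI3 kinase, was 45.9 in 2VO and 54.9 in Sham. Of 22 partners and effectors of p75, 17 were higher in 2VO and 5 were lower, around a median of 0.13. The genes furthest up were Omg, at 55.9 in 2VO and 35.1 in Sham, and Mag, at 128 in 2VO and 102 in Sham. Both encode myelin-associated ligands of the Nogo receptor complex, and Mag is also 1 of the 7 oligodendrocyte markers, all higher in 2VO. Bex3, a p75 interactor, was 99.4 in 2VO and 120 in Sham, and the kinase gene Rock1 was 13.5 in 2VO and 15.4 in Sham.

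Processing and trafficking genes were centred near the median of all genes. Of 10 measured genes for proneurotrophin processing 7 were higher in 2VO and 3 were lower, around a median of 0.04. Timp1, an inhibitor of matrix metalloproteinases, was the 1 gene past 1.5-fold, at 1.39 units in 2VO and 3.55 in Sham. Serpini1, the inhibitor neuroserpin, was 65.2 units in 2VO and 49.1 in Sham, and the convertase gene Pcsk7 was 7.87 in 2VO and 8.63 in Sham. Of 14 trafficking partners of sortilin 11 were higher in 2VO and 3 were lower, around a median of 0.06, and with equal upper quartiles 7 were higher and 7 lower. Snx1 and Vps35, retromer genes, were 26.5 and 46.4 in 2VO and 21.8 and 40.2 in Sham. Htt, the huntingtin gene, was 12.9 in 2VO and 13.6 in Sham, and Gga1, a sorting adaptor, was 13.53 in 2VO and 13.97 in Sham. Among other neurotrophic factors and receptors 16 of 28 were higher in 2VO and 12 were lower, around a median of 0.02. None passed 1.5-fold, again near the share of 2.48% over all measured genes. Gfra2 and Gfra4, co-receptors of the GDNF family, were 2.71 and 2.86 in 2VO and 1.48 and 3.97 in Sham. With 1 unit added Gfra2 lay just short of 1.5-fold, and without it the ratio was 1.82. Fgf9, a fibroblast growth factor, was 7.32 in 2VO and 5.42 in Sham, and Fgfr1, a receptor of that family, was 55.3 in 2VO and 69.5 in Sham.

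The side of 0 on which a list lay depended on the scaling of the libraries. With equal upper quartiles, the medians became -0.01 for the activity list and for the regulators of Bdnf, -0.07 for Trk adaptors and kinases, -0.03 for processing, -0.0018 for sortilin partners and -0.05 for other neurotrophic factors. Those of dense core vesicle genes, at 0.02, and of p75 partners, at 0.07, stayed above 0. The 6 neurotrophin members kept 5 lower and 1 higher under each scaling tried, with a median of -0.22 under this one.

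The wild-type mouse was set beside the Sham rat as levels across species. Species, age and table differ at once here and cannot be told apart, and 17.9% of 11436 shared measured symbols lay at least 2-fold apart, 6.54% higher and 11.3% lower in the mouse. None of the 6 measured members passed 2-fold, and 2 passed 1.5-fold, as did 39.5% of all symbols, 15.0% higher and 24.5% lower in the mouse. These were Vgf and Ntf3. Vgf was 59.2 units in the mouse and 29.2 in Sham, a log2 ratio of 1.00 that lies just short of 2-fold with 1 unit added; without it the ratio was 2.03. Ntf3 was 2.87 in the mouse and 6.02 in Sham, a log2 ratio of -0.86. Ntf3 over Ntrk3 within a library was 0.543 times as high in the mouse as in Sham.

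**Figure D4:**
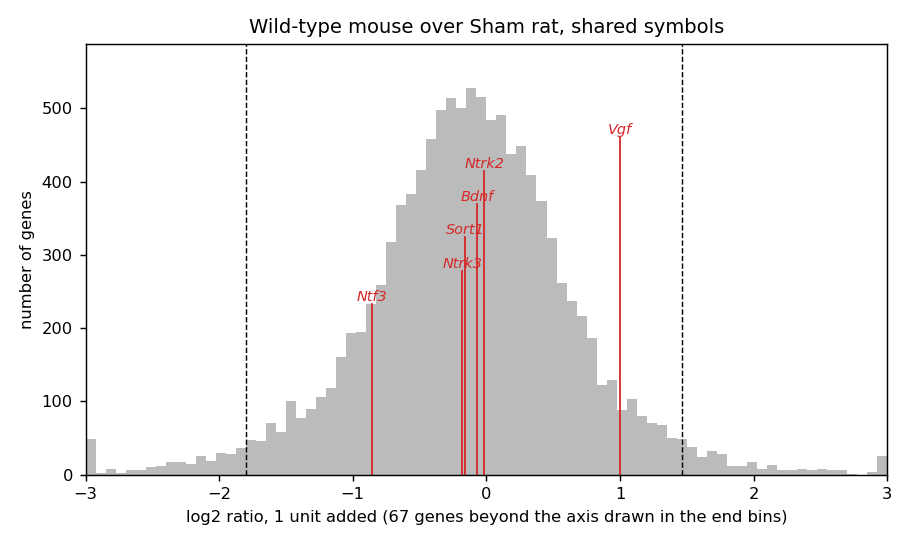
Histogram of the log2 ratio of the wild-type mouse over the Sham rat (1 unit added) for 11436 measured shared symbols, with dashed lines at the central 95% and red lines at the 6 measured members. Vgf lies at 1.00 and Ntf3 at -0.86, both inside the dashed lines, and the other 4 lie between -0.18 and -0.01, near the median of all symbols at -0.12.

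The other members were close in the 2 species. Ntrk2 was 70.1 units in the mouse and 70.8 in Sham, and Bdnf was 9.37 in the mouse and 9.87 in Sham. Ntrk3 was 24.6 in the mouse and 28.0 in Sham, and Sort1 was 104 in the mouse and 117 in Sham. Ngfr was 0.359 in the mouse and 0.531 in Sham, low in each library. Other scalings moved the median of all symbols by up to 0.28, so directions are given relative to that median. On that basis Vgf had a difference from it of 1.02 to 1.15 log2 units over the scalings and added values tried, and Ntf3 one of -0.88 to -0.46. For Bdnf, Ntrk2, Ntrk3 and Sort1 this difference lay between -0.08 and 0.13, so no direction is given for them.

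The order of the libraries differed between the members. Ngfr, under 1 unit in each library, is left out here. Sham was highest for Bdnf, Ntf3, Ntrk3 and Sort1, the mouse for Vgf and 2VO for Ntrk2. The 2VO library was the lowest of the 3 for Bdnf, Sort1 and Vgf, and the mouse for Ntf3, Ntrk2 and Ntrk3. These orders are of the values as deposited. With equal upper quartiles the mouse stood above Sham for Bdnf at a log2 ratio of 0.22, for Ntrk3 at 0.13, for Sort1 at 0.16 and for Ntrk2 at 0.30, so the place of the mouse for these 4 genes rests on the scaling. No spread between replicates is known, so which neighbours in these orders differ could not be judged.

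Likeness to each member was measured among 164 genes of the lists as the Euclidean distance over 2 log2 ratios, 2VO over Sham and mouse over Sham, which share the Sham library and rest on 3 libraries. Nearest to Bdnf were Akt1 at 0.13 and Sh2b1, an adaptor gene, at 0.22. The same 2 genes were nearest to Sort1, at 0.06 for Akt1 and 0.05 for Sh2b1. Nearest to Ntf3 were Rtn4r, the Nogo receptor gene, at 0.03 and Mdk, the midkine gene, at 0.04. Nearest to Ntrk2 were Crtc1, a CREB coactivator gene, and the kinase gene Mapk9, both at 0.05. Ntrk3 had Rest, a transcriptional repressor gene, and Tnfrsf19, a relative of the p75 gene, both at 0.07. Rest was low, at 1.07 units in 2VO, 0.840 in the mouse and 1.18 in Sham, so the unit added draws its ratios towards 0. Nearest to Vgf were Rapgef1, a guanine nucleotide exchange factor gene, at 0.15 and Pcsk1, a convertase gene, at 0.22. The nearest genes of Bdnf and Vgf thus lay further off than those of the other 4 members.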

How the data were processed

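Total RNA of hippocampus was extracted with TRIzol and, per the labels' protocols, made into libraries with a TruSeq RNA v2 kit. Per the submitters' processing notes the tools were fastp 0.21.0, HISAT2 2.1.0 and DESeq2, with no role given, and the builds were mRatBN7.2 (rat) and GRCm39 (mouse). The quantifier, annotation, filters and strand setting are not stated there or in the labels. The deposited tables hold 1 normalized expression signal per gene, never negative, in a unit not stated; the values summed to 333941 in 2VO, 268889 in the mouse and 325636 in Sham.

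Values were used as deposited. Each log2 ratio had 1 unit added above and below, so that it understates differences of low genes, and genes were called measured where the 2 libraries compared averaged 1 unit or more. Joining mouse and rat by symbol gave 16251 shared symbols. With 1 library in each group, no test was run. Genes 1.5-fold or 2-fold apart were counted. The members and the 9 gene lists were chosen with earlier results of these data known. The genes named were all members, all genes of the ligand and receptor list, the 2 highest and 2 lowest measured genes of each other list and the 2 nearest list genes to each member; other genes named, such as marker genes, were chosen after their values were seen. Some genes that this rule takes are left out of the lists, their counts and the text. Promoter windows are from RefSeq (GRCr8), which is not the build named in the notes, so no other coordinates are given. The alternatives were 3 other scalings, 0.25 or 4 units added, and a minimum mean of 0 or 5 units. The calculation was tested on simulated data. Python 3.11.15, pandas 2.3.3, numpy 2.4.6 and matplotlib 3.10.9 were used.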

Additional observations from a re-analysis of the deposited data

How the results depend on the processing

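No paired analysis was possible because each group holds 1 library. For the same reason no library could be left out. For 2VO against Sham the median log2 ratio of the neurotrophin genes stayed below 0, from -0.22 with equal upper quartiles to -0.12 with 4 units added. The ratio of Bdnf ran from -0.40 to -0.26; no setting changed the sign of a member's ratio. Genes past 2-fold numbered 60, and 128 with 0.25 units added, 18 with 4 units added and 27 at a mean of at least 5 units, where fewer genes are counted. Past 1.5-fold there were 336, and 557, 120 and 156 in those 3 settings. The share higher in 2VO among genes past 1.5-fold was 61.0% as deposited and 45.3% with equal upper quartiles (144 higher and 174 lower). It was 48.8% with the median of ratios (157 higher and 165 lower), and among genes past 2-fold it was 55.0% as deposited and 43.1% with equal upper quartiles.

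For the mouse against Sham, genes past 2-fold numbered 2044, and 933 with 4 units added and 1286 at a mean of at least 5 units. Of them 36.6% were higher in the mouse as deposited and 61.7% with equal upper quartiles, 47.5% with the median of ratios and 56.7% with equal sums without the 50 most abundant genes. The median of the members, -0.11 as deposited, became 0.19 with equal upper quartiles, 0.017 with the median of ratios and 0.13 with equal sums without the 50 most abundant genes, since these scalings raise all mouse values. In the same 3 settings, chosen for single genes after the data were seen, Bdnf became 0.22, 0.056 and 0.16 and Ntrk2 0.30, 0.12 and 0.24. Ntrk3 became 0.13 and Sort1 0.16 with equal upper quartiles, and 0.065 and 0.093 with equal sums. Vgf reached 1.31 with equal upper quartiles, past 2-fold, and Ntf3 reached -1.01 with 0.25 units added. The unknown depth and single libraries limit every value, most of all those of Ngfr, at a low level.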
